A study of Apostichopus japonicus with 3 samples.

Results

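The gut of Apostichopus japonicus, a sea cucumber, was compared between animals arousing from aestivation and animals outside it. The comparison covered 18070 of the 20712 isotigs listed in the series, an isotig being 1 assembled transcript of a transcriptome read without a genome. These are the isotigs found in the arousal or the non-aestivation library whose mean level over the 3 libraries of the series was at least 1 RPKM, which is the read count divided by isotig length and by the library's total of aligned reads. The 2 libraries listed 19794 isotigs in all, and the others lay below that mean. At the margin, isotig06111 was kept with a mean of 1.00 RPKM, from 1 read in arousal and 0 in both other libraries, and isotig10005 was left out with 0.999 RPKM, from 0 reads in arousal and 2 in non-aestivation, with 1 in deep aestivation. The arousal group was 1 library of intestines labelled arousal from aestivation, and the non-aestivation group was 1 library of intestines labelled non-aestivation. A library of intestines in deep aestivation completes the series and is set beside the comparison where it helps to read it. The design text gives at least 15 individuals per stage, and neither age nor the pooling of their RNA is given in the sources used here.

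Which library is which rests on the sample labels alone. The deposited tables carry stage codes in their names, and for arousal and non-aestivation these codes are the reverse of the labels. Every direction below would turn round if the names were right and the labels wrong. With 1 library a stage there is no spread between animals, so no test was made, and each difference below is one between 2 libraries.

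Aestivation is a dormancy of the warm season, in which sea cucumbers of this species stop feeding and the gut becomes thin and short. Arousal ends it, and feeding begins again as the gut is rebuilt. In feeding animals the gut epithelium secretes digestive enzymes, carries peptidases and disaccharidases on its brush border, and takes up sugars, amino acids and fatty acids through membrane carriers and binding proteins. The roles given for single proteins below are known from other animals, since the names are those of each isotig's best match in a protein database, most often from the sea urchin Strongylocentrotus purpuratus.

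The arousal library held 0.945 M uniquely aligned reads, the non-aestivation library 1.02 M and the deep aestivation library 0.893 M. At this depth 1 read on an isotig of 1000 bases was worth 1.06 RPKM in arousal and 0.978 RPKM in non-aestivation. The median isotig had 8 reads in arousal and 9 in non-aestivation, and 8286 and 8741 isotigs had at least 10 reads in the arousal and the non-aestivation library. The 20 most abundant isotigs took 35.6% of the reads in arousal and 28.1% in non-aestivation. Since the tissue was read in bulk, a cell type that is rarer and a cell type with less of an RNA per cell cannot be told apart.

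For each isotig the log2 ratio of RPKM + 0.5, arousal over non-aestivation, was taken. An isotig was called when that ratio was at least 2-fold and the exact counting interval of its fold, taken at an error rate of 0.001, did not include equal shares of reads. By this rule 704 isotigs were called higher in arousal, which is 3.90% of those compared, and 956 were called lower, which is 5.29%, so that 9.19% were called either way. The remaining 16410, among them every isotig with fewer than 10 reads over both libraries (6157), were called neither way. The median log2 ratio was -0.06, and the quartiles were -0.89 and 0.75. Among the called isotigs, 282 were at least 4-fold higher and 429 at least 4-fold lower, and 47 and 114 passed 16-fold. In the arousal library 848 isotigs had reads and none in non-aestivation, with at most 150 reads, and 1297 had reads in non-aestivation and none in arousal, with at most 288. Each fold of an isotig below divides its share of the arousal reads by its share of the non-aestivation reads, or the reverse where it was lower, and comes with an exact 95% interval that covers counting error alone, and a fold against a library without reads is a lower bound that puts 3 reads there.

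**Figure D1:**
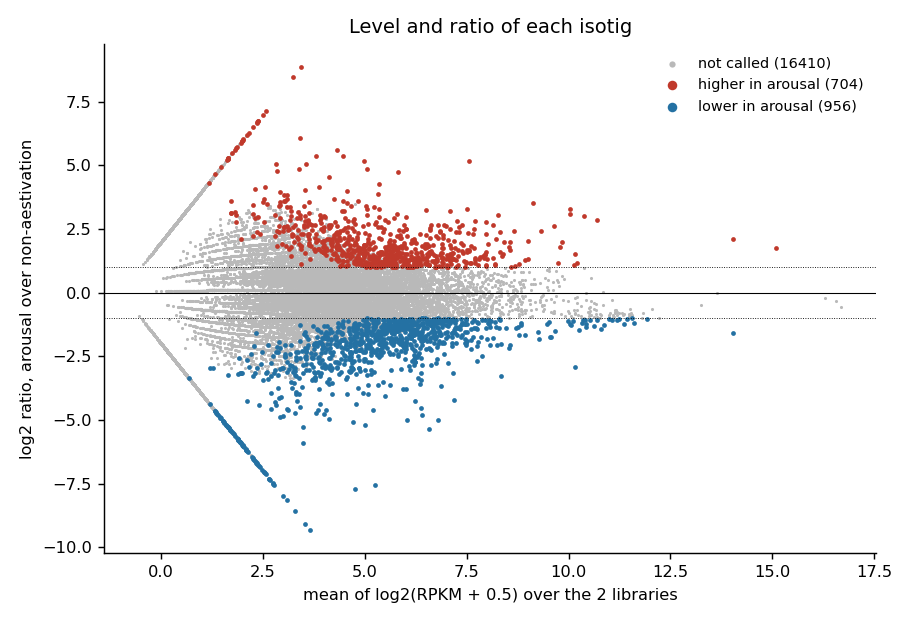
Each point is 1 of the 18070 isotigs, placed by its mean level over both libraries on a log2 axis (RPKM + 0.5) and by its log2 ratio, arousal over non-aestivation, with dotted lines at 2-fold. The 704 isotigs called higher are red, the 956 called lower are blue, the rest are grey, and the straight arms to the left are isotigs without reads in 1 of the 2 libraries.

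The balance of calls depends on how the libraries are scaled. When the 20 most abundant isotigs were left out of the totals, the median of all isotigs stood at 0.09, a shift of 0.15 on the log2 scale, and 891 isotigs were called higher and 744 lower. The share of higher among all calls was then 54.5%, against 42.4% with the full totals. Calls lower in arousal were thus the more numerous with the full totals, and calls higher in arousal without those 20 isotigs.

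Isotigs with a recognisable protein leaned towards arousal and those without one towards non-aestivation. Of 8856 isotigs with a protein match, 531 (6.0%) were called higher and 283 (3.2%) lower, with a median log2 ratio of 0.11. Of 9214 without a match, 173 (1.88%) were called higher and 673 (7.30%) lower, with a median of -0.38. Unmatched isotigs held 36.2% of the reads in arousal, 48.4% in non-aestivation, and deep aestivation stood between them at 43.4%. The 3 unmatched isotigs with most reads took 13.3% of the arousal library (95% interval 13.2 to 13.3) and 17.5% of the non-aestivation library (17.5 to 17.6), and none of the 3 was called. What these sequences encode is not given in the files.

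Of the 10 named isotigs with most reads over both libraries, 4 were called, all higher in arousal: major yolk protein 1, fatty acid binding protein 2, apolipoprotein B and a putative porin. The other 6, among them 3 ribosomal proteins and cytochrome c oxidase subunit 1, were not called. Major yolk protein 1, isotig13120, had 101055 reads in arousal, 10.7% of the library, against 25032 reads in non-aestivation, 2.45%, which is 4.37-fold higher (95% interval 4.31 to 4.43). This iron-binding protein of the transferrin family is made in sea urchins by the gut as well as the gonad. Major yolk protein 2, isotig03531, had 1708 reads in arousal and 661 in non-aestivation, 2.80-fold higher (2.55 to 3.06). Deep aestivation held 90687 and 1846 reads of the pair, close to arousal in share (10.2% for major yolk protein 1).

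Lipid carriers followed. Apolipoprotein B, isotig13070, the scaffold of lipoprotein particles, had 8906 reads in arousal against 1773 in non-aestivation, 5.44-fold higher (5.17 to 5.72). Matches to vitellogenin, a lipid-carrying yolk protein of the same family, had 817 reads in arousal against 105 in non-aestivation for isotig17734, and 1574 reads against 417 for isotig14304. These were 8.42-fold (6.86 to 10.4) and 4.08-fold (3.66 to 4.56) higher, and all 3 lipid carriers were also more abundant in deep aestivation than in non-aestivation, with 13091, 459 and 974 reads. Microsomal triglyceride transfer protein, which loads lipid onto apolipoprotein B, was called higher as well, with 52 reads in arousal and 25 in non-aestivation.

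Fatty acid binding protein 2, isotig19264, carries fatty acids inside absorptive gut cells. It had 51380 reads in arousal, 5.44% of the library, against 16574 reads in non-aestivation, 1.62%, a 3.35-fold difference (3.30 to 3.41). Deep aestivation had 2849 reads, 0.319%. Unlike the yolk protein and apolipoprotein B, this transcript was thus lower in deep aestivation than in either other library.

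Putative porins, channels of the outer mitochondrial membrane, showed the same order of stages. Together the 5 isotigs took 1.23% of the reads in arousal (95% interval 1.21 to 1.25), 0.151% in non-aestivation (0.144 to 0.159) and 0.0484% in deep aestivation, and 4 of the 5 were called higher. The most abundant, isotig10241, had 5444 reads in arousal and 812 in non-aestivation, and isotig14866 had 4184 and 532. Folds of the 4 ran from 7.26 for isotig10241 (6.74 to 7.82) to 11.7 for isotig22637 (9.54 to 14.4). A match to voltage-dependent anion channel 2, another porin, went the other way, with 15 reads in arousal against 56 in non-aestivation. Uncoupling protein 2, isotig14489, a carrier of the inner membrane, had 165 reads in arousal against 22 in non-aestivation, 8.12-fold higher (5.18 to 13.3).

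**Figure D2:**
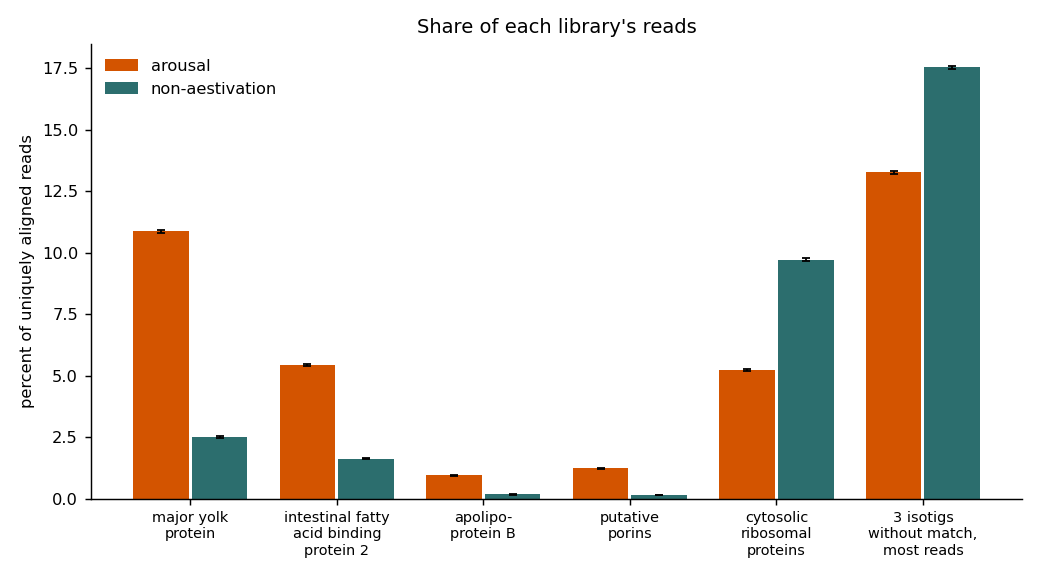
Bars give the percent of each library's uniquely aligned reads, arousal in orange left of non-aestivation in green, summed over the isotigs of 6 transcripts or groups, with exact 95% counting intervals as error bars. Major yolk protein (10.9% in arousal, 2.51% in non-aestivation) and intestinal fatty acid binding protein 2 (5.44%, 1.62%) were larger in arousal, while cytosolic ribosomal proteins (5.22%, 9.72%) and the 3 unmatched isotigs (13.3%, 17.5%) were smaller.

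Among isotigs with a named match, a mean of at least 5 RPKM and at least 50 reads over both libraries (1603 isotigs), the 15 highest ratios included 3 isotigs of angiotensin converting enzyme and 2 of putative porins. The highest was a cellular retinol-binding protein of type 1b, isotig11232, a carrier of vitamin A, with 150 reads in arousal and 0 in non-aestivation, at least 54.1-fold higher. GTPase IMAP family member 7, isotig16046, a family studied in lymphocytes of vertebrates, had 59 reads in arousal and 0 in non-aestivation, at least 21.3-fold higher. Growth factor receptor 2 variant b, isotig06516, had 216 reads in arousal and 4 in non-aestivation, 58.4-fold higher (22.5 to 216), and a subtilisin/kexin type 9 match, isotig15283, had 51 and 1, 55.2-fold higher (9.47 to 2222). In mammals that protease marks the low-density lipoprotein receptor for breakdown. Both of these last isotigs had still more reads in deep aestivation, 349 and 203.

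Angiotensin converting enzyme, a peptidase of cell surfaces that removes dipeptides from the ends of peptides, accounted for 3 of the 15 highest ratios. Isotig28510 had 59 reads in arousal and 2 in non-aestivation, isotig25710 had 71 and 5, and isotig07117 had 52 and 0. The corresponding folds were 31.9 (8.45 to 269.8), 15.4 (6.28 to 48.8) and at least 18.8. The most abundant isotig of this enzyme, isotig07116, had 986 reads in arousal against 288 in non-aestivation, 3.70-fold higher (3.25 to 4.24), and the 6 isotigs together took 0.124% of reads in arousal, 0.0298% in non-aestivation, with deep aestivation at 0.0278%. All 4 of these isotigs were called, and the other 2 isotigs of the enzyme were not.

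The lower end was led by isotigs with no or almost no reads in arousal. An AMPA receptor match, isotig13309, named for a glutamate-gated channel of synapses, had 5 reads in arousal against 1245 in non-aestivation, 230-fold lower (98.3 to 709.9), while deep aestivation had 74. CUB and sushi multiple domains protein 1, isotig11651, had 1 read against 306, 283-fold lower (50.4 to 11205), and a lipoprotein receptor-related protein 1B match, isotig21129, had 0 against 138, at least 42.5-fold lower. Neither was common in deep aestivation, with 5 and 2 reads. A trypsin-like serine protease, isotig13602, whose best match is a sequence of this same species, had 27 reads in arousal against 1220 in non-aestivation, 41.8-fold lower (28.6 to 63.6), and 7 in deep aestivation. Matriptase, isotig25725, a membrane-bound serine protease of epithelia, had 0 reads in arousal against 134 in non-aestivation, at least 41.3-fold lower. These proteases were therefore detected almost entirely in the non-aestivation library.

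A regeneration associated protein, isotig16746, described in another sea cucumber, had 5 reads in arousal against 218 in non-aestivation, 40.3-fold lower (17.0 to 125), but 262 in deep aestivation. Betaine-homocysteine methyltransferase, isotig13345, which returns a methyl group to homocysteine, had 36 reads in arousal against 557 in non-aestivation, 14.3-fold lower (10.2 to 20.6), and 2594 in deep aestivation. For both, arousal was the lowest of the 3 libraries. Rh type C glycoproteins, which are ammonia channels, had 2 reads in arousal against 53 in non-aestivation for isotig20329 and 3 reads against 50 for isotig18384, and were 24.5-fold (6.45 to 207) and 15.4-fold (4.98 to 77.2) lower.

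**Figure D3:**
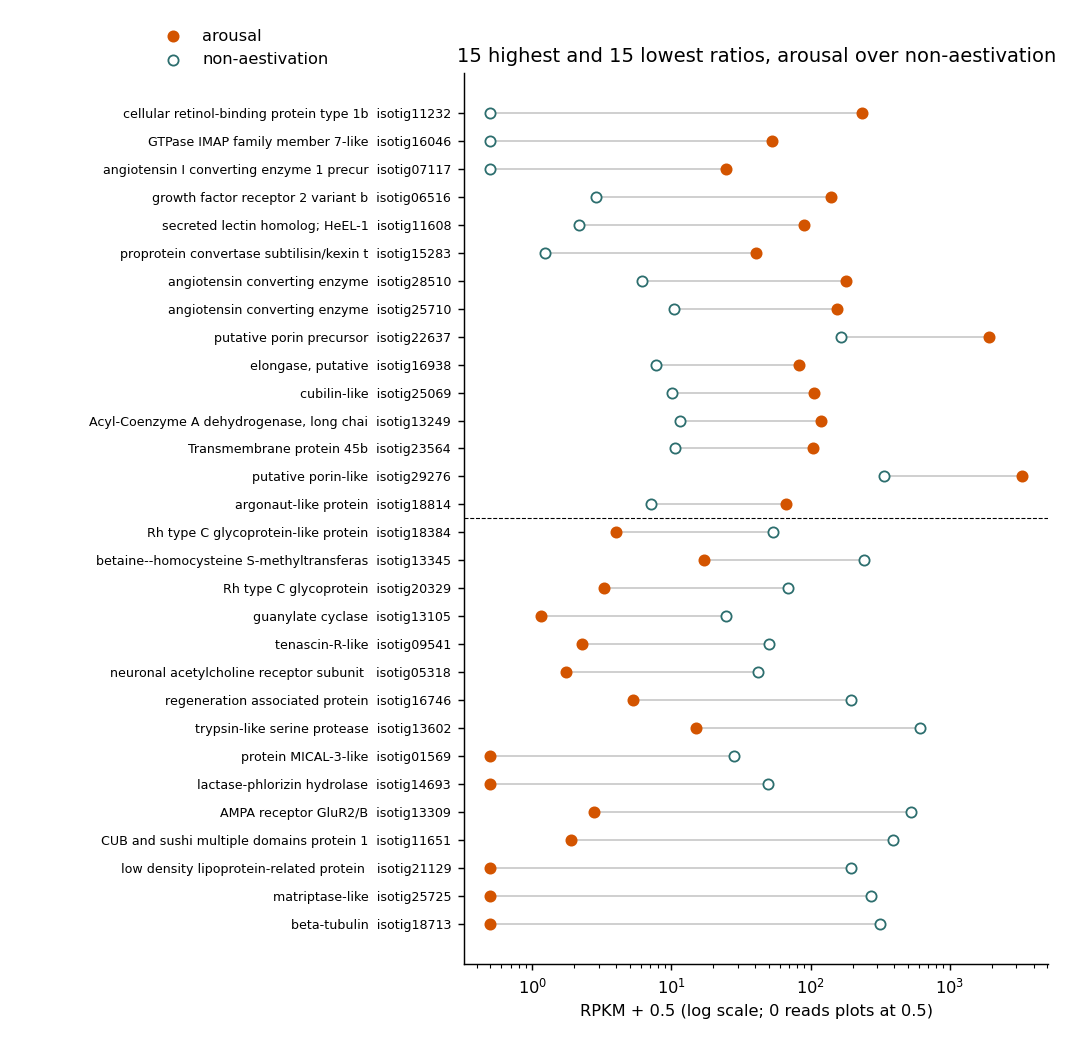
Levels in arousal (filled) and non-aestivation (open) are given as RPKM + 0.5 on a log axis for the 15 isotigs with the highest ratio, above the dashed line, and the 15 with the lowest, below it, among named isotigs of at least 50 reads. Points at 0.5 stand for 0 reads, as for isotig11232 in non-aestivation and isotig18713 in arousal.

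Lists of genes by role were matched on the names of the best matches, so their members come from isotigs with a match. Each list was therefore read against 2 backgrounds, the 3.90% higher and 5.29% lower of all isotigs and the 6.0% higher and 3.2% lower of those with a match. Single isotigs named from a list, beyond its highest and lowest member, were picked from the called ones after their values were seen. Isotigs that share a best match can be pieces or variants of 1 gene, and reads that fit more than 1 of them are lost or split by unique alignment, so their single values are less certain than their sum.

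Enzymes of digestion were more often higher in arousal. Of 27 digestive proteases 14 were called higher and 3 lower, with a median log2 ratio of 1.78, or 1.26 with each library without reads set to 3 reads. The list took 0.595% of reads in arousal against 0.325% in non-aestivation, with deep aestivation between them at 0.437%. Anionic trypsin-1, isotig13029, had 216 reads in arousal against 54 in non-aestivation, 4.33-fold higher (3.20 to 5.95). Carboxypeptidase A, which trims peptides from their C-terminal end, had 604 against 247, and glutamyl aminopeptidase, isotig13445, had 1356 against 457. The 3 calls lower in this list were the trypsin-like isotig13602, matriptase and 1 of the aminopeptidase N isotigs.

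Enzymes that split sugars and lipids were also more often higher, with 12 of 34 called higher and 2 lower and a median of 1.19, or 0.60 with 3 reads in place of 0. They took 0.501% of reads in arousal, 0.302% in non-aestivation and 0.438% in deep aestivation. Maltase 1, isotig13364, had 1580 reads in arousal against 434 in non-aestivation, 3.94-fold higher (3.54 to 4.39), with 1792 in deep aestivation. Maltase-glucoamylase, isotig19900, had 242 against 46, and sucrase-isomaltase, isotig13501, had 413 against 161, with 124 in deep aestivation. All 3 release simple sugars from starch fragments or sucrose at the gut surface. Matches to lactase-phlorizin hydrolase, a disaccharidase, were split: of 6 isotigs 3 were called higher and 2 lower. Isotig27463 had 362 reads in arousal against 72 in non-aestivation, 5.44-fold higher (4.21 to 7.11), while isotig08881 had 706 against 1727, 2.26-fold lower (2.07 to 2.47), and isotig14693 had 0 against 75, at least 23.1-fold lower. Summed over the 6 isotigs, this enzyme took 0.121% of reads in arousal (0.114 to 0.128) and 0.186% in non-aestivation (0.177 to 0.194).

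Solute carriers and transporters showed the largest number of higher calls of any list, though not the largest share. Of 116 isotigs 25 (21.6%) were called higher and 6 (5.17%) lower, with a median of 1.05. Together the 116 took 0.507% of reads in arousal, 0.236% in non-aestivation and 0.468% in deep aestivation. Smaller lists had larger shares called higher, such as digestive proteases with 51.9% and fatty acid and sterol synthesis with 53.3%. A fructose transporter, isotig13835, had 540 reads in arousal against 94 in non-aestivation, 6.22-fold higher (4.99 to 7.82), and a sodium-glucose cotransporter, isotig14172, had 43 against 7, 6.65-fold higher (2.96 to 17.5). Slc16a7, isotig13192, a carrier of monocarboxylates such as lactate and pyruvate, had 399 against 50, 8.64-fold higher (6.42 to 11.8). The highest of the list was choline transporter-like protein 2, isotig15436, with 45 reads against 4. ATP-binding cassette transporters, which export lipids and foreign compounds, were called higher in 7 of 17 isotigs and lower in none, at 0.0902% of reads in arousal (0.0842 to 0.0964) against 0.0261% in non-aestivation (0.0231 to 0.0294). Called lower were the pair of Rh type C glycoproteins, a cystine/glutamate transporter, 2 glycine transporters and aquaporin-4, a water channel, with 25 reads in arousal against 125 in non-aestivation. The sodium/potassium ATPase alpha subunit, isotig17841, which drives sodium-coupled uptake, had 493 reads in arousal against 197 in non-aestivation, 2.71-fold higher (2.29 to 3.21).

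Receptors for lipoproteins were more often lower. Of 15 isotigs of the low-density lipoprotein receptor type 1 was called higher and 6 lower, with a median of -1.39, and together they took 0.0189% of reads in arousal (0.0163 to 0.0219), 0.0670% in non-aestivation (0.0621 to 0.0722) and 0.109% in deep aestivation. The low-density lipoprotein receptor match isotig23101 had 14 reads in arousal against 114 in non-aestivation, 7.52-fold lower (4.31 to 14.2). Niemann-Pick C protein, which moves cholesterol out of lysosomes, was called higher in both named isotigs, with 368 reads against 102 for isotig15977 and 225 against 38 for isotig14554. Over the whole list of 53 lipid carriers and binding proteins, 12 were called higher and 8 lower, and the median of -0.11 took the other sign, 0.03, when the 20 largest isotigs were left out of the totals.

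Of 15 isotigs listed under fatty acid and sterol synthesis 8 were called higher and 0 lower, with a median of 1.66. Fatty acid synthase, isotig17168, had 177 reads in arousal against 24 in non-aestivation, 7.98-fold higher (5.19 to 12.8), and a fatty acid elongase, isotig16938, had 83 against 8, 11.2-fold higher (5.44 to 26.9). HMG-CoA reductase, the rate-limiting enzyme of sterol synthesis, isotig14502, had 74 against 14, 5.72-fold higher (3.2 to 11). Acetyl-CoA carboxylase, Neverland, which in insects acts on cholesterol, both lipins and an acyltransferase of phospholipid synthesis made up the other called members. The list is thus wider than the making of fatty acids and sterols. In deep aestivation fatty acid synthase had 33 reads, HMG-CoA reductase 40 and the elongase 6, all fewer than in arousal. These enzymes do not stand for the whole list. Summed over its 15 isotigs, it took 0.0807% of arousal reads and 0.0307% of non-aestivation reads, with deep aestivation between them at 0.0618%.

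Of 34 isotigs of fatty acid oxidation 6 were called higher and 0 lower, with a median of 0.64. Long chain acyl-CoA dehydrogenase, isotig13249, had 277 reads in arousal against 28 in non-aestivation, 10.7-fold higher (7.25 to 16.4), and 1272 in deep aestivation. Acyl-CoA oxidase, which starts the peroxisomal route, had 241 against 84, and carnitine palmitoyltransferase I, which admits fatty acids to mitochondria, had 80 against 41. In both lists, of synthesis and of oxidation, every call was thus higher in arousal, while 7 of 15 and 28 of 34 isotigs were called neither way.

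Other mitochondrial and central metabolic lists had few calls. None of 19 citrate cycle isotigs was called, with a median of 0.42, and 1 of 15 of glycolysis and gluconeogenesis was, fructose-1,6-bisphosphatase, with 129 reads in arousal against 65 in non-aestivation. Of 70 isotigs of oxidative phosphorylation 1 was called higher and 5 lower, and their median of -0.15 came to 0.00 when the 20 largest isotigs were left out of the totals. The ATP synthase gamma subunit, isotig08836, had 32 reads in arousal against 139 in non-aestivation, 4.01-fold lower (2.72 to 6.09). Cytochrome c oxidase subunit 1, isotig07060, encoded in mitochondrial DNA, had 6137 reads in arousal and 6684 in non-aestivation, a log2 ratio of -0.01. The higher porin levels were thus not matched by higher levels of the respiratory chain subunits.

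Amino acid and one-carbon metabolism held 11 isotigs called higher and 2 lower of 40, with a median of 0.84. The 3 steps of serine synthesis were all called higher. Phosphoglycerate dehydrogenase had 278 reads in arousal against 77 in non-aestivation, phosphoserine aminotransferase 173 against 51, and phosphoserine phosphatase 339 against 120. Together the 3 took 0.0836% of reads in arousal (0.0779 to 0.0897), 0.0243% in non-aestivation (0.0213 to 0.0275) and 0.00739% in deep aestivation. Folate enzymes that use the carbon of serine followed. Methylenetetrahydrofolate reductase, isotig13139, had 918 reads in arousal against 312 in non-aestivation, 3.18-fold higher (2.80 to 3.63), and methionine synthase, isotig13085, which passes the methyl group to homocysteine, had 332 against 42, 8.55-fold higher (6.19 to 12.1). In deep aestivation these had 24 and 30 reads.

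The betaine route to methionine was split between isotigs. Isotig13777 had 401 reads in arousal against 114 in non-aestivation, 3.81-fold higher (3.08 to 4.73), and isotig18090 had 28 against 7, in contrast to isotig13345 above, which dominated in deep aestivation. Summed over the 3 isotigs, betaine-homocysteine methyltransferase took 0.0492% of reads in arousal (0.0448 to 0.0539), 0.0663% in non-aestivation (0.0614 to 0.0715) and 0.302% in deep aestivation. Glycine N-methyltransferase, which uses up methyl groups, had 11 reads in arousal, 60 in non-aestivation and 218 in deep aestivation, in the same order as isotig13345.

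Ribosomal proteins of the cytosol formed the most uniform list. Of 71 isotigs 0 were called higher and 15 lower, the median log2 ratio was -0.87, and the quartiles were -1.03 and -0.76. Together they took 5.22% of reads in arousal (5.17 to 5.26), 9.72% in non-aestivation (9.66 to 9.77) and 4.97% in deep aestivation. Ribosomal protein L30, isotig24860, had 499 reads in arousal against 1344 in non-aestivation, 2.49-fold lower (2.24 to 2.76). L13, with 2388 against 5077, lay 1.96-fold lower (1.87 to 2.06), just short of the fold needed for a call. Because most members lie so close to 2-fold, the number called was 5 when the 20 largest isotigs were left out of the totals, although the median stayed at -0.72. The median isotig of the cytosolic list had 1874 reads over both libraries. With the full totals 21.1% of the list was called lower, beside 17.7% of all isotigs with 1000 reads or more. Mitochondrial ribosomal proteins had a median log2 ratio of -0.30 and a median of 28 reads, and none of 26 was called.

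Other parts of the translation machinery were mixed. Of 55 translation factors and tRNA synthetases 3 were called higher and 5 lower, with a median of -0.24. Subunits of initiation factor 3, which readies the small ribosomal subunit, were called lower in 4 of 13 isotigs and higher in none, and elongation factor 1-beta had 71 reads in arousal against 188 in non-aestivation. Called higher were initiation factor 4G, with 131 reads against 66, and 2 asparaginyl-tRNA synthetase isotigs, with 48 against 22 and 27 against 7.

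Histones were lower or not called. Of 64 isotigs of histones and chromatin 0 were called higher and 8 lower, with a median of -0.22. Histone H1, which links nucleosomes, was called lower in 3 of 4 isotigs, and isotig22036 had 15 reads in arousal against 170 in non-aestivation, 10.5-fold lower (6.17 to 19.1), with 50 in deep aestivation. The 109 isotigs of DNA replication and the cell cycle had a median of 0.01, with 2 called higher and 1 lower. The one called lower was the beta subunit of ribonucleotide reductase, the enzyme that makes DNA precursors, with 8 reads in arousal against 60 in non-aestivation. Splicing proteins and transcription factors had medians of -0.16 and 0.11, and 1 and 2 isotigs were called in each direction.

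Kinases and phosphatases lay near the shares of matched isotigs, with 15 of 207 (7.25%) called higher and 4 (1.93%) lower and a median of 0.50. Of 16 isotigs of insulin, TOR and AMPK signalling 3 were called higher and 0 lower, with a median of 1.17. The 3 were p70 ribosomal protein S6 kinase, a target of TOR, with 65 reads in arousal against 28 in non-aestivation, and 2 catalytic subunits of phosphoinositide 3-kinase, with 53 against 16 and 26 against 6. Extracellular signal-regulated kinase, isotig15861, had 146 against 35, 4.51-fold higher (3.10 to 6.73). Protein kinase C delta went the other way, with 0 reads against 42 for isotig03797 and 106 against 237 for isotig03795.

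Growth factor and developmental signalling was divided, with 4 of 55 called higher and 5 lower. FGFR1, a fibroblast growth factor receptor, had 54 reads in arousal against 14 in non-aestivation, while follistatin, which binds activin, had 8 against 73 and secreted frizzled-related protein 1, which binds Wnt, had 16 against 68. The last 2 are extracellular inhibitors of their pathways. The median of this list, -0.06, was 0.09 when the 20 largest isotigs were left out of the totals.

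Lectins and fibrinogen-related proteins, which in invertebrates recognise microbial sugars, were the list with the lowest median, -1.56, with 6 of 89 called higher and 15 lower. With each library without reads set to 3 reads the median was -0.62, and cytosolic ribosomal proteins, at -0.87, were then the lowest list. Of 43 ficolin and fibrinogen-like isotigs 1 was called higher and 10 lower, and together they took 0.0306% of reads in arousal (0.0272 to 0.0343) against 0.120% in non-aestivation (0.113 to 0.127), with deep aestivation at 0.123%. A ficolin 1 match, isotig03772, had 39 reads in arousal against 175 in non-aestivation, 4.15-fold lower (2.92 to 6.03). Exceptions were 2 beta-glucan binding proteins, with 230 reads against 39 for isotig17641 and 125 against 26 for isotig27963, and a secreted lectin, isotig11608, with 49 against 1, 53.0-fold higher (9.08 to 2137).

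Other immune genes leaned the other way, with 12 of 97 called higher and 4 lower and a median of 0.35. Complement factor H, a regulator that protects host surfaces, was called higher in 4 of 6 isotigs, at 0.0520% of reads in arousal (0.0475 to 0.0568) against 0.0200% in non-aestivation (0.0173 to 0.0229). Interferon-induced very large GTPase was called higher in 3 of 19 isotigs and GTPase IMAP family members in 2 of 6. Serum amyloid A, an acute phase protein of vertebrates, had 0 reads in arousal, 17 in non-aestivation and 69 in deep aestivation.

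Extracellular matrix genes had 8 of 123 called higher and 17 lower, with a median of 0.03. Collagens took 0.309% of reads in arousal (0.298 to 0.320), 0.602% in non-aestivation (0.587 to 0.617) and 0.305% in deep aestivation, and of 27 isotigs 2 were called higher and 4 lower. Alpha-5 collagen, isotig14428, had 1034 reads in arousal against 2662 in non-aestivation, 2.38-fold lower (2.21 to 2.56), and laminin alpha chain, isotig15850, a basement membrane protein, had 24 against 212, 8.16-fold lower (5.34 to 13.0). Enzymes that remodel the matrix were also more often lower. Of 15 matrix metalloproteinases and their inhibitors 1 was called higher and 7 lower, at 0.0416% of reads in arousal (0.0376 to 0.0459), 0.0769% in non-aestivation (0.0716 to 0.0824) and 0.112% in deep aestivation. Of the whole list 12 were called higher and 13 lower when the 20 largest isotigs were left out of the totals.

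Of 101 isotigs of actin, myosin and muscle 4 were called higher and 7 lower, with a median of 0.09. A titin-like isotig13411, named for the giant spring protein of muscle, had 179 reads in arousal against 799 in non-aestivation, 4.12-fold lower (3.50 to 4.88), and smooth muscle myosin light chain kinase had 119 against 371. Gelsolin, which cuts actin filaments, had 979 against 418, 2.53-fold higher (2.26 to 2.85), and myosin VI and VIIA, motors known from microvilli and hair cells, had 51 against 10 and 17 against 0. Of 12 tubulins 1 was called in each direction. Alpha tubulin, isotig18082, had 673 against 301, and the one called lower, beta-tubulin isotig18713 with 0 against 288, has its best match in a ciliate. None of 73 cilia, dynein and kinesin isotigs was called lower, with 3 called higher and a median of -0.27.

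Neuronal and synaptic genes were called in both directions, 8 of 87 higher and 5 lower, and their median was 0.17. Besides the AMPA receptor, the nicotinic acetylcholine receptor was called lower in 2 of 6 isotigs, with 2 reads in arousal against 72 in non-aestivation for isotig05318 and 34 against 156 for isotig17738. Acetylcholinesterase, which breaks the transmitter down, was called higher in 4 isotigs, with 128 reads against 38 for isotig19310, and lower in 1.

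Protective and clearing systems were not called, were called evenly in both directions or were more often higher. Cytosolic heat shock proteins, chaperones of damaged proteins, had 0 of 32 called and a median of 0.13, at a median of 19.5 reads over both libraries. Antioxidant enzymes were called higher in 4 and lower in 4 of 43, with catalase, isotig06119, at 85 reads in arousal against 15 in non-aestivation, 6.13-fold higher (3.52 to 11.4), and a copper/zinc superoxide dismutase, isotig17129, at 29 against 148, 4.72-fold lower (3.15 to 7.29). Both enzymes remove reactive oxygen, one hydrogen peroxide and the other superoxide. Cytochrome P450 and conjugating enzymes, which process foreign compounds and steroids, had 11 of 69 called higher and 3 lower, with a median of 0.69.

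Lysosomal genes were called higher in 8 of 41 isotigs and lower in none, with a median of 0.54. Legumain and cathepsin L2, cysteine proteases of lysosomes, had 2110 reads in arousal against 1081 in non-aestivation for isotig15138 and 2272 against 1106 for isotig13709. Ubiquitin and proteasome isotigs, 118 in all, had 5 called higher and 1 lower, and of 44 isotigs of folding in the secretory pathway 3 were called higher and 2 lower. The 73 retrotransposon isotigs had 0 called higher and 3 lower. Autophagy and the circadian clock, with 5 and 6 isotigs and a median of 8 and 6.5 reads over both libraries, had none called.

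The remaining lists held few isotigs or few calls. Ion pumps and channels had 4 of 41 called higher and 0 lower, vesicle traffic 5 of 111 higher and 1 lower, mucins and glycosyltransferases 3 of 49 higher and 0 lower, and apoptosis 2 of 31 in each direction. Mucin-5AC, a gel-forming mucin, had 95 reads in arousal against 42 in non-aestivation. Of 9 isotigs of urea, purine and nitrogen breakdown 2 were called higher, the larger being a nitrilase, isotig08549, with 223 reads against 34. The 15 isotigs of yolk and gonad had 4 called higher and 1 lower, and the 19 mitochondrial porins and carriers 5 and 1.

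**Figure D4:**
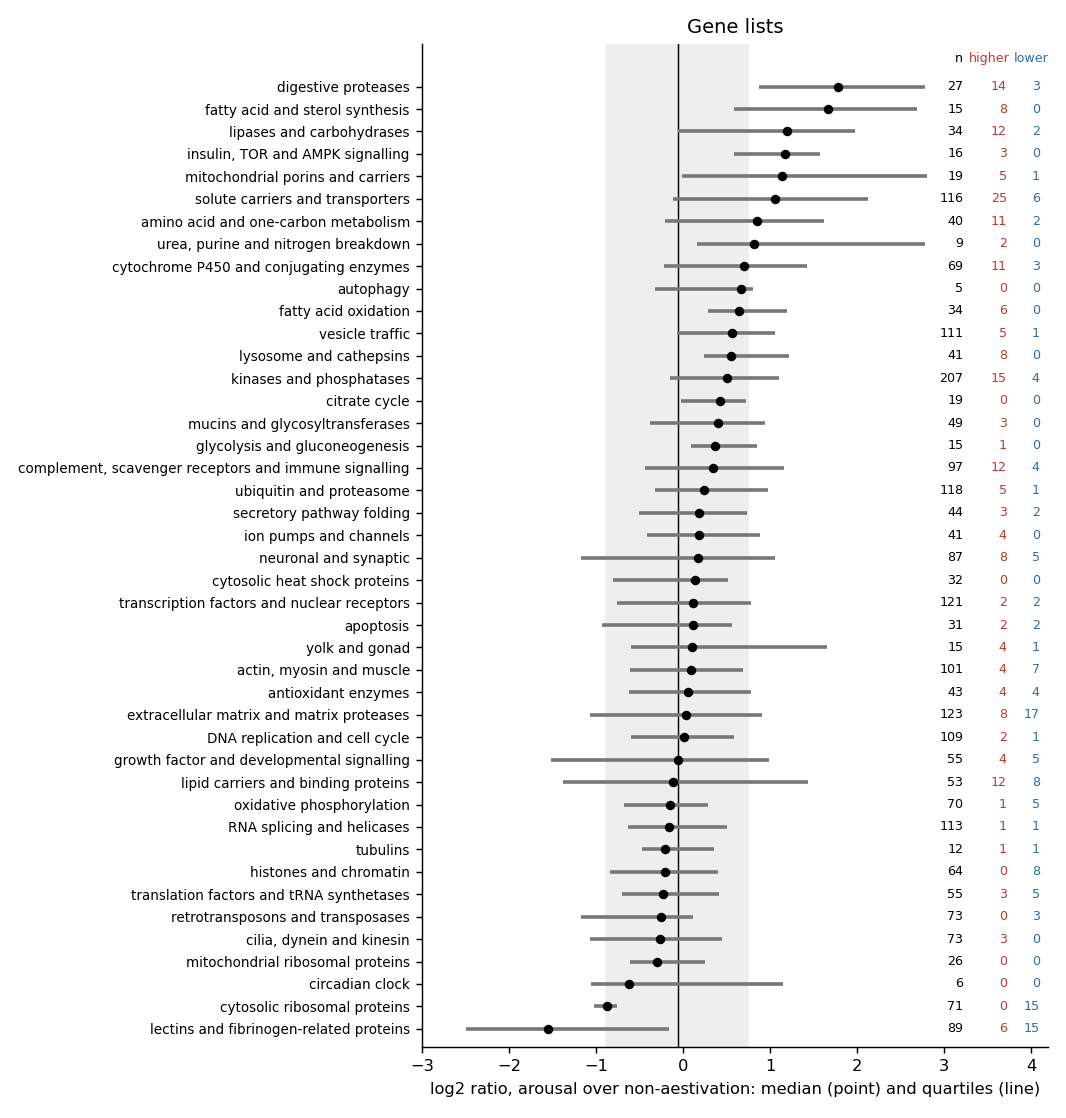
For each of the 43 lists the point is the median log2 ratio, arousal over non-aestivation, and the line spans the quartiles, with the grey band giving the quartiles of all 18070 isotigs and the black line their median of -0.06. Columns at the right give the number of isotigs and the numbers called higher and lower; digestive proteases stand highest with a median of 1.78, and cytosolic ribosomal proteins and lectins lowest with -0.87 and -1.56.

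The tissue label was set against markers of the gut and of neighbouring tissues. Of 21 isotigs of gut epithelium markers 8 were called higher and 2 lower, and they took 5.72% of reads in arousal, 1.71% in non-aestivation while deep aestivation held 0.617%, with fatty acid binding protein 2 making up most of these reads. Without it the other 20 isotigs took 0.285% in arousal and 0.0919% in non-aestivation, and deep aestivation, at 0.298%, was then the highest of the 3. Villin, a protein of microvilli, was matched by 1 isotig, with 5 reads in arousal, 2 in non-aestivation and 6 in deep aestivation. Aminopeptidase N, maltases and sucrase-isomaltase were present in every library. Gut markers were therefore found in all 3 stages, with uneven shares.

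Markers of other tissues and cell types were read in the same way. Gonad markers, 6 isotigs with 4 called higher, took 11.1% of reads in arousal, 2.57% in non-aestivation, with deep aestivation at 10.5%, and major yolk protein and vitellogenin made up nearly all of these reads. The germ cell markers vasa, nanos, synaptonemal complex proteins and zona pellucida proteins were matched by 0 isotigs. The egg bindin receptor, a sperm-binding protein of sea urchin eggs, was matched by 4 isotigs that were not counted among the 6. They had 18 reads in arousal, 14 in non-aestivation and 24 in deep aestivation. Not all of the 4 vitellogenin matches were among the 6 either. The single piwi match, which was, had 14 reads in arousal, 10 in non-aestivation and 7 in deep aestivation. Muscle markers took 0.143% of reads in arousal, 0.213% in non-aestivation and 0.163% during deep aestivation, with 1 of 28 called higher and 3 lower, and paramyosin was matched by 0 isotigs. The titin-like isotig13411 alone had 179 of their 1352 reads in arousal and 799 of 2177 in non-aestivation. Myosin heavy chain had 405 reads in arousal against 450 in non-aestivation, tropomyosin 146 against 171, and troponin 37 against 83. Neuronal markers took 0.0965%, 0.0853% and 0.129% in arousal, non-aestivation and deep aestivation, with 4 of 34 called higher and 3 lower. These markers had 912, 872 and 1156 reads in that order, and the 3 AMPA receptor isotigs had 74, 1453 and 262. The AMPA receptor isotigs were thus not all counted among the markers, and 2 of them were called lower and 0 higher. Coelomocyte markers, of free immune cells, took 0.126%, 0.172% and 0.196% in the same order, and ciliated cell markers 0.00646%, 0.00959% and 0.0151%, with none called among 5 and 15 isotigs. The median of the muscle list, -0.03, changed sign under every other scaling, to at most 0.12. The part of these cell types in the results for muscle, neuronal, immune and matrix genes was not tested.

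Gene ontology terms gave the same comparison without the lists. Of the isotigs, 3335 had a Process term, 3562 a Function term and 3311 a Component term, and annotated isotigs leaned towards arousal as a whole: those with a Process term were 6.78% higher and 2.58% lower, with a median of 0.25. Terms with at least 20 isotigs numbered 108, 55 and 56. Isotigs with a Function term were 7.24% higher and 2.55% lower, and those with a Component term 6.46% higher and 2.63% lower. Of the Process terms, 98 had a median above that of all isotigs. Since annotated isotigs as a whole lay above it too, that number says little about single terms.

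The Function terms with the largest share called higher were those of peptide and ester hydrolysis. Exopeptidase activity had 9 of 21 isotigs called higher and 0 lower, with a median of 1.26, and its called members were 4 angiotensin converting enzyme isotigs, 2 dipeptidases and 3 further isotigs. Carboxylesterase activity had 5 of 20 called higher and 0 lower, with a median of 1.15, mostly phospholipases. Of the wider terms, hydrolase activity had 14 of 108 called higher and 6 lower, and peptidase activity 4 of 26 higher and 1 lower.

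Membrane terms were likewise more often higher. Integral to membrane had 11 of 46 called higher and 4 lower, membrane 43 of 350 higher and 4 lower, and cell fraction 14 of 62 higher and 0 lower. The medians of the last 2 were 0.60 and 0.71. Endosome had 6 of 34 called higher and 0 lower, and mitochondrion 5 of 29 higher and 1 lower. In Process the largest share called higher was that of developmental process, 8 of 31 with 0 lower. Lipid metabolic process had 7 of 47 called higher and 2 lower, carbohydrate metabolic process 4 of 22 higher and 0 lower, and protein metabolic process 10 of 48 higher and 0 lower.

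Terms with many cytosolic ribosomal proteins stood at the other end. Small ribosomal subunit had 6 of 22 called lower and 0 higher, with a median of -0.89, ribonucleoprotein complex 11 of 76 lower and 0 higher, and structural molecule activity 15 of 88 lower and 0 higher. Translation had 12 of 93 called lower and 3 higher, with a median of -0.57. Pancreas development, with 9 of 43 called lower and 1 higher, was in content a ribosomal term, since 28 of its 43 isotigs and 6 of the 9 called lower were cytosolic ribosomal proteins. The Process term with the largest share called lower, 9 of 34, has no name in the files, and again 28 of its isotigs and 6 of the 9 were cytosolic ribosomal proteins. Among Component terms, extracellular region had the second largest share called lower, 5 of 26, with 2 higher. Nucleus and cytoskeleton each had 2 called higher and 0 lower, of 55 and 57 isotigs. DNA replication had 1 of 22 called higher and 0 lower, and binding 48 of 706 higher and 15 lower.

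**Figure D5:**
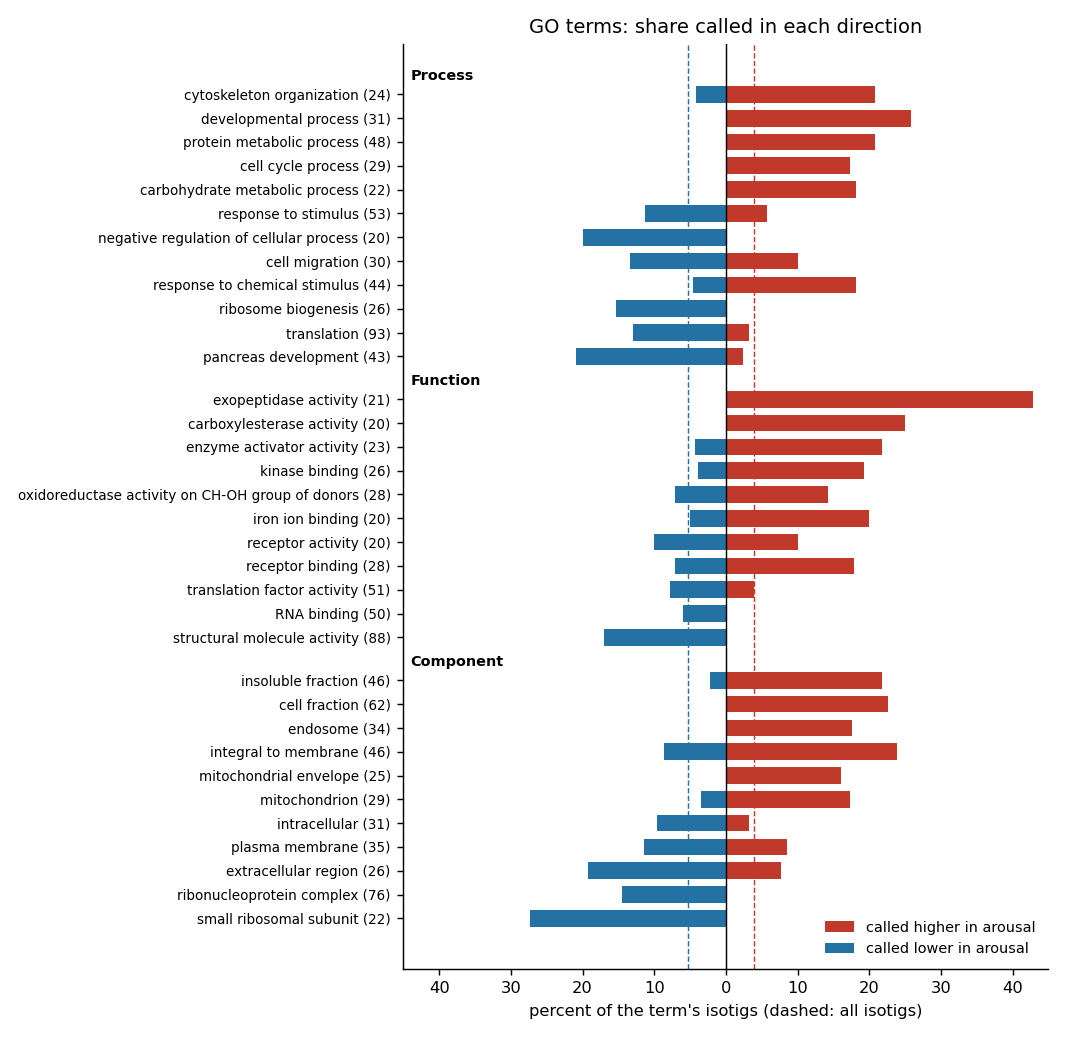
Bars give the percent of each term's isotigs called higher in arousal (red, to the right) and called lower (blue, to the left), with the number of isotigs in brackets and dashed lines at the shares over all isotigs, 3.90% and 5.29%. Exopeptidase activity reaches 42.9% higher with none lower, and small ribosomal subunit 27.3% lower with none higher.

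Isotigs that share a best match rarely went opposite ways. Among 1135 matches shared by more than 1 isotig, 52 had at least 2 called isotigs, and in 47 of these all called isotigs had 1 direction. The named exceptions were 3. For the cellular retinol-binding protein, isotig11232 was called higher, with 150 reads in arousal and 0 in non-aestivation, and isotig10933 lower, with 113 and 512, while the 5 isotigs together had 597 reads in arousal, 938 in non-aestivation and 159 in deep aestivation. Aminopeptidase N had 23 reads in arousal against 1 in non-aestivation for isotig05199 and 5 against 28 for isotig05198. Fibrinogen-like protein A had 1 isotig called higher and 4 lower of 17. Whether such isotigs are separate genes or forms of 1 transcript is not given in the files.

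Deep aestivation lay between the other libraries for most called isotigs. Since these were called for a gap of at least 2-fold between the other 2 libraries, a further library tends to fall inside it. The counts alone thus do not make deep aestivation an intermediate stage. Of the 704 called higher, the RPKM of deep aestivation was between the other 2 in 448, below both in 142 and above both in 114. The median levels of these isotigs were 70.7 RPKM in arousal, 21.6 in non-aestivation and 37.5 for deep aestivation. Of the 956 called lower, deep aestivation was between in 606, above both in 225 and below both in 125, with median levels of 20.4 RPKM in arousal, 78.5 in non-aestivation and 52.0 in deep aestivation. Fatty acid binding protein 2, the porins and the serine synthesis enzymes belonged to those with deep aestivation lowest, apolipoprotein B and long chain acyl-CoA dehydrogenase to those with deep aestivation highest.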

How the data were processed

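The deposited tables give, per the file headers, the isotig length, a count of reads aligned to it uniquely, in whole numbers, the coverage as a percent of its length, RPKM, gene ontology terms and the best protein match. The authors computed RPKM from that count, the length and the total of aligned reads, per the file headers, and recomputing it gave the deposited values. CASAVA 1.5 is named in the submitters' processing notes. Per the labels' protocols, mRNA was enriched with oligo(dT) beads, fragmented and amplified by PCR. Not given in the sources used here: the aligner, the assembler, the read length and any strand setting. An isotig missing from a table was taken as 0 reads. The reference table of gene names shared 0 identifiers with the isotigs, so no sequence or coordinate was used.

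Ratios used a pseudocount of 0.5 RPKM, which moves ratios of isotigs with few reads. Intervals are exact conditional binomial (Clopper-Pearson), shares have exact binomial ones, and a fold against 0 reads uses a floor of 3 reads in that library. Reads copied by PCR and carrying no molecular identifier are not independent, so these cover counting error only. Python 3.11.15 with numpy 2.4.6, scipy 1.17.1, pandas 2.3.3 and matplotlib 3.10.9 was used.

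The isotigs, gene lists and tests were chosen with earlier results of these data known, and list patterns were corrected by reading the matched descriptions. The rule for named isotigs took isotigs whose match has a name, whose mean was at least 5 RPKM and which had at least 50 reads over both libraries, and of these the 15 highest and 15 lowest ratios, the 10 with most reads and the highest and lowest of each list, and of isotigs without a named match the 5 with most reads and the 3 highest and 3 lowest. Other isotigs named were chosen after their values were seen. Gene ontology terms of at least 20 isotigs were named by the 6 largest shares called higher and the 6 largest called lower in each column, with some terms fixed besides. The 13 alternatives tried were other scalings, pseudocounts, filters on low values, folds, intervals, a floor for 0 reads and sums over isotigs with 1 best match.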

Additional observations from a re-analysis of the deposited data

How the results depend on the processing

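No paired analysis was possible because each stage has 1 library, and for the same reason no library could be left out. The numbers called changed by over 1.5 times where the call rule itself changed: 282 higher and 429 lower at 4-fold, 1480 higher and 1791 lower with a 95% interval, and 3429 higher and 4201 lower by fold alone. Of the isotigs past 2-fold, most thus had too few reads for a call. Both counts stayed within 1.5 times of 704 higher and 956 lower under the other settings run, at 764 and 888 scaled by median ratio, 826 and 816 scaled by upper quartile, 891 and 744 without the 20 largest isotigs in the totals, and 647 and 903 with isotigs summed over 1 best match. The median log2 ratio of all isotigs, -0.06, was -0.0178 scaled by median ratio, 0 with 3 reads in place of 0, and took the other sign scaled by upper quartile (0.0227) and without the 20 largest isotigs (0.0865); the cause was not tested. No called isotig among the 124 named by the rule changed direction under any scaling, and none could have. The scalings moved the median log2 ratio by at most 0.15, and a call needs at least 2-fold. Without reads of a second library from the same stage, differences between animals, batches or preparations cannot be told apart from differences between stages.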

Other observations

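Some isotigs had their best match in single-celled eukaryotes. Matches to 20 genera of such organisms, chosen after the values were seen, numbered 107 isotigs, with 6 called higher in arousal and 8 lower and a median log2 ratio of -0.29. The isotig with the lowest ratio of all those named, the beta-tubulin isotig18713, belongs here. It had 0 reads in arousal, 288 in non-aestivation, where reads covered 91.3% of its length, and 0 in deep aestivation, and its best match is a tubulin of the ciliate Chilodonella uncinata. Of the 107 isotigs, 1 had reads in arousal alone, 9 in non-aestivation alone and 0 in deep aestivation alone. Among the 20 with a best match in ciliate genera, 7 had reads in non-aestivation alone and 0 in either other library alone. Besides isotig18713 these included matches to elongation factor 1 alpha (isotig20617, 9 reads), Hsp70 (isotig19330, 6 reads) and Hsp90 (isotig26202, 6 reads). Ubiquitin isotig28759, with 0 reads in arousal, 43 in non-aestivation and 0 in deep aestivation, had its best match in a Plasmodium species. Whether these isotigs are transcripts of the sea cucumber was not tested.

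Unmatched isotigs also reached large ratios. Isotig09836 had 114 reads in arousal, 0 in non-aestivation and 1 in deep aestivation, at least 41.1-fold higher in arousal than in non-aestivation, and isotig15743 had 103, 1 and 0, 111-fold higher (95% interval 19.6 to 4445). In the other direction, isotig06755 had 0 reads in arousal, 137 in non-aestivation and 0 in deep aestivation, at least 42.2-fold lower in arousal. Of the 5 unmatched isotigs with most reads, isotig29200 was called, with 2561 reads in arousal against 8340 in non-aestivation, 3.01-fold lower (2.88 to 3.15).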
